A study of Sus scrofa with 6 samples.

Results

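Complement is a cascade of blood and tissue proteins that marks foreign material and damaged cells and can open pores in membranes. The classical pathway starts when C1q binds a target and switches on the proteases C1r and C1s, which cut C4 and C2; the alternative pathway runs on C3, factor B and factor D; both meet at C3 and lead on to C5 and the membrane attack proteins. Macrophages are a main source of C1q in tissues, the liver makes most of the circulating components, and kidney tubule cells can make some of them.

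RNA levels of complement components and of C1 inhibitor were examined in renal cortex of Large White pigs aged 3 months, with 1 porcine Agilent array for each kidney and each kidney from a different pig. In the control group (n = 3) the organ was taken out, sampled and frozen at once. In the ischemia group (n = 3) it was clamped and kept clamped for 60 min at 37 °C, flushed with University of Wisconsin solution (a cold organ preservation fluid) at 4 °C, and stored at 4 °C for 24 h before freezing. No kidney was reperfused, and warm ischemia, flush and storage cannot be told apart. The position on the slide was 4 for every control array and 3 for every ischemia array, so this also cannot be told apart from the group. Of the proximal tubule markers, which mark the labelled cortex, 12 of 12 genes had a tested probe.

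Probes were taken where the gene name column of the array files held C1QA, C1QB, C1QC, C2, C3, C5, CFB, CFD or SERPING1. This gave 14 of the 43603 probes, for 6 of the 5250 genes with a symbol: 1 probe for C1QA, 2 for C2, 5 for C3, 2 for C5, 1 for CFB and 3 for SERPING1. The names C1QB, C1QC and CFD did not occur in that column. The description column named them for 4 further probes, which are shown beside the others and are left out of the counts of the 14. All 18 probes were well above background on all 6 arrays. Values are log2 signals minus the 75th percentile of each array, so 0 is the level of that percentile. Levels of different probes are not comparable, because probes bind with different strength.

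None of the 14 probes differed between the groups at an adjusted p under 0.05 (limma with Benjamini-Hochberg adjustment over 25013 probes; adjusted p from 0.683 to 0.998). Over all tested probes 1 passed, which is 0.004%. At an unadjusted p under 0.05, 2 of the 14 were higher after ischemia and 0 were lower, where 2.98% and 3.32% of all probes were, or 6.3% in either direction. All 3 ischemia values lay above all 3 control values for 2 of the 14 probes, C1QA and 1 C2 probe, against 5.88% of all probes; for 0 of the 14 did they all lie below, against 5.03%. Of the 14 probes 7 were higher and 7 lower after ischemia, with a median log2 difference of 0.00. With 1 probe for each of the 6 genes, the brightest, 4 were higher and 2 lower, and the median log2 difference was 0.29. It was -0.04 over all tested probes and 0.01 over 4105 genes with a symbol.

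**Figure D1:**
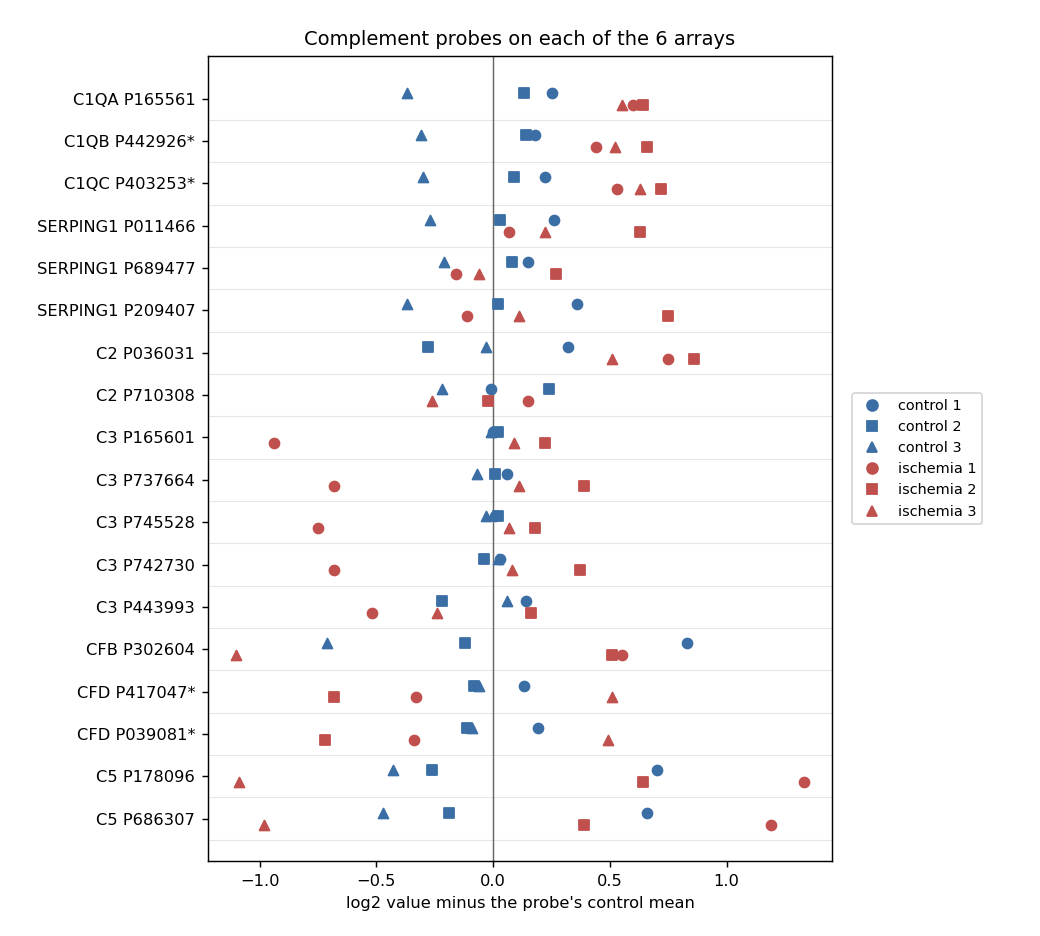
Log2 value of each complement probe on each of the 6 arrays, minus the mean of the 3 control arrays for that probe; blue symbols are control kidneys, red symbols ischemia kidneys, and the symbol shape gives the kidney number. An asterisk marks a gene named in the description column only. The red and blue symbols are apart for C1QA, C1QB, C1QC and C2 P036031, ischemia 1 lies lowest on all 5 C3 probes, and ischemia 3 lies lowest for CFB and both C5 probes.

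The 3 chains of C1q, the recognition molecule that opens the classical pathway, had nearly the same profile and were higher in every ischemia kidney than in any control kidney. Each chain has 1 probe. The probes of C1QB and C1QC are printed, whole and in lower case, because the array names these 2 genes in its descriptions alone.
C1QB A_72_P442926: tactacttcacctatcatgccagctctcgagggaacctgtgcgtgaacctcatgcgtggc
C1QC A_72_P403253: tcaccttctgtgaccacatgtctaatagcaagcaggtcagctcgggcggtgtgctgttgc

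C1QA, the A chain, read 1.64, 1.52 and 1.02 in control kidneys 1, 2 and 3 and 1.99, 2.03 and 1.94 in ischemia kidneys 1, 2 and 3. The groups did not overlap, the ischemia kidneys lay within 0.09 of each other, and control 3 was the lowest of the 6. The means were 1.39 ± 0.33 (SD, n = 3) and 1.98 ± 0.04 (SD, n = 3). The difference of 0.59 ± 0.22 (SE), a ratio of 1.51 with a 95% interval from 1.05 to 2.17, did not pass the test over all probes (limma adjusted p = 0.751).

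C1QB, the B chain, read 3.15, 3.11 and 2.66 in the control kidneys and 3.41, 3.63 and 3.49 in the ischemia kidneys. C1QC, the C chain, read 1.02, 0.89 and 0.50 in the controls and 1.33, 1.52 and 1.43 after ischemia. Neither chain's groups overlapped, and control 3 was again the lowest array for both. The differences were 0.53 ± 0.21 for C1QB and 0.63 ± 0.21 for C1QC, with limma adjusted p = 0.767 and 0.718. On each of the 3 slides, which carried 1 control and 1 ischemia array each, all 3 chains were higher in the ischemia array, by 0.39, 0.41 and 0.97 for C1QA, 0.48, 0.38 and 0.75 for C1QB, and 0.51, 0.54 and 0.84 for C1QC. With slide as a block the limma adjusted p values were 0.504, 0.509 and 0.438.

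The chains followed each other more closely than they followed any other gene. Likeness was taken as the root mean square difference between 2 genes' log2 profiles over the 6 arrays, each centred on its own mean. Among 4103 other genes, the 2 nearest to each chain were the other 2 chains, at 0.06 for C1QA and C1QC, 0.07 for C1QA and C1QB, and 0.05 for C1QB and C1QC, while the chains' own spread about their means was 0.32 to 0.35. In the pig gene table the 3 genes are direct neighbours, in the order C1QA, C1QC, C1QB. This is a description over 6 arrays.

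Since C1q is largely a macrophage product, macrophage markers were read beside it. Of 12 marker genes 7 had a tested probe. Of these, 6 were higher and 1 lower after ischemia, where 44.2% of all tested probes were higher, and their median log2 difference was 0.33. By limma 0 passed, and 1 was higher at an unadjusted p under 0.05, where 2.98% of all probes were. For 2 of the 7 all ischemia values lay above all control values, against 5.88% of all probes. CD163, a scavenger receptor of macrophages for hemoglobin and haptoglobin, read 0.28, 0.37 and 0.47 in the controls and 2.41, 1.77 and 1.18 after ischemia. The groups did not overlap on this probe. Its 4 probes differed by 0.78 to 1.58, and 3 of them did not overlap, but they read 1 gene in the same kidneys. CD14, the lipopolysaccharide co-receptor, differed by -0.42 ± 0.26, and CD86, a costimulatory ligand, by 0.45 ± 0.22, both without passing (limma adjusted p = 0.896 and 0.852). The summed signal of the 7 markers, in units of the 75th percentile of the array, was 11.1 to 14 in the controls and 14.4 to 22.6 after ischemia. CD163, which had the largest difference of the 7, is part of this sum, and a sum without it was not taken. The sums therefore do not show that the markers as a set separated the groups. CD68, CSF1R, MARCO, MSR1 and LAPTM5 were not matched to a probe. In bulk tissue, more cells of a type and more RNA per cell cannot be told apart, and the part of macrophages in the C1q values was not tested.

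The 3 probes for SERPING1, the C1 inhibitor that blocks C1r, C1s and the lectin pathway proteases, did not separate the groups. The brightest, A_72_P011466, read 3.67, 3.44 and 3.14 in the controls and 3.48, 4.04 and 3.63 after ischemia. Ischemia 2 was the highest array and control 3 the lowest on all 3 probes, with the other 4 arrays mixed between. The differences were 0.30 ± 0.24, 0.01 ± 0.21 and 0.25 ± 0.30, and the 95% interval of the brightest probe ran from a ratio of 0.831 to 1.83 (limma adjusted p = 0.924). The second probe, A_72_P689477, read 1.73, 1.66 and 1.37 against 1.42, 1.85 and 1.52. The dimmest, A_72_P209407, read -0.68, -1.02 and -1.41 against -1.15, -0.29 and -0.93. The translation factors EIF4A1 and EIF4E2 had the profiles nearest to the brightest probe, at 0.04 and 0.05.

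The 2 probes for C2, the protease part of the classical and lectin C3 convertase, did not give the same picture. The brighter probe, A_72_P036031, read -0.35, -0.95 and -0.70 in the controls and 0.08, 0.19 and -0.16 in the ischemia kidneys. All 3 ischemia kidneys lay above all 3 controls, with means of -0.67 ± 0.30 (SD, n = 3) and 0.04 ± 0.18 (SD, n = 3). The difference was 0.70 ± 0.23, a ratio of 1.63 with a 95% interval from 1.12 to 2.36, and did not pass (limma adjusted p = 0.683; 0.385 with slide as a block). Within slides 1, 2 and 3 it was 0.54, 0.79 and 0.79. The nearest profiles were SRSF12, a splicing factor, at 0.09 and GRK3, a kinase of G protein-coupled receptors, at 0.10.

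The dimmer C2 probe, A_72_P710308, read -3.59, -3.34 and -3.80 in the controls and -3.43, -3.60 and -3.84 after ischemia. The groups overlapped throughout, and the difference was -0.04 ± 0.22 with a 95% interval from -0.55 to 0.47 (limma adjusted p = 0.984). The sequences are shown because both probes carry the same transcript accession in the files while the groups separated on 1 of them only; the difference between the probes was not tested. The dimmer probe is printed whole, and of the brighter one only bases 31 to 60, with the hexamer AATAAA in capitals, the letters of the common polyadenylation signal.
C2 A_72_P710308: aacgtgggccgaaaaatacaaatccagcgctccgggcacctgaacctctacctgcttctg
C2 A_72_P036031: atgaaattAATAAAaatcaatgatttccac
The hexamer, searched on the printed strand, occurs in 4187 of all 43603 probes (9.6%). The GC content is 55% in the dimmer probe and 35% in the brighter one. Where on the transcript each probe lies was not analysed here.

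C3, the protein on which all pathways converge, was almost level among the controls and split among the ischemia kidneys. The brightest of its 5 probes, A_72_P165601, read 0.54, 0.56 and 0.53 in the controls and -0.40, 0.76 and 0.63 after ischemia. Ischemia 1 lay far below every control, and ischemia 2 and 3 lay just above them. The means were 0.54 ± 0.02 (SD, n = 3) and 0.33 ± 0.63 (SD, n = 3), and the difference of -0.22 ± 0.32 did not pass (limma adjusted p = 0.949).

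The other 4 C3 probes gave the same order of kidneys at the ends: ischemia 1 was lowest and ischemia 2 highest on all 5. A_72_P737664 read 0.29, 0.24 and 0.16 against -0.45, 0.62 and 0.34, and A_72_P745528 read 0.19, 0.20 and 0.15 against -0.57, 0.36 and 0.25. A_72_P742730 read -0.14, -0.21 and -0.15 against -0.85, 0.20 and -0.09. The dimmest, A_72_P443993, read -1.50, -1.86 and -1.58 against -2.16, -1.48 and -1.88, with ischemia 3 just below control 2 rather than above the controls. The 5 differences ran from -0.22 to -0.06; with median centring of the arrays 2 of the 5 were above 0, and without ischemia 1 the range was -0.04 to 0.25.

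Agreement between C3 probes is partly built in, since all 5 read the same gene and a pair of them overlaps. The shared run of 39 bases in that pair is in capitals.
C3 A_72_P742730: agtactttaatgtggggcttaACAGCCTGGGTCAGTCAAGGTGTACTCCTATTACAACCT
C3 A_72_P737664: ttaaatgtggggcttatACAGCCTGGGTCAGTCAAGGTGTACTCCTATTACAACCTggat
The nearest profiles to the brightest C3 probe were KLF9, a glucocorticoid-responsive transcription factor, at 0.11, and SLA2, an adaptor of lymphocyte receptors, at 0.12. KLF9 read 5.35, 5.25 and 5.25 in the controls and 4.16, 5.27 and 5.43 after ischemia, so it too was low in ischemia 1 alone.

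**Figure D2:**
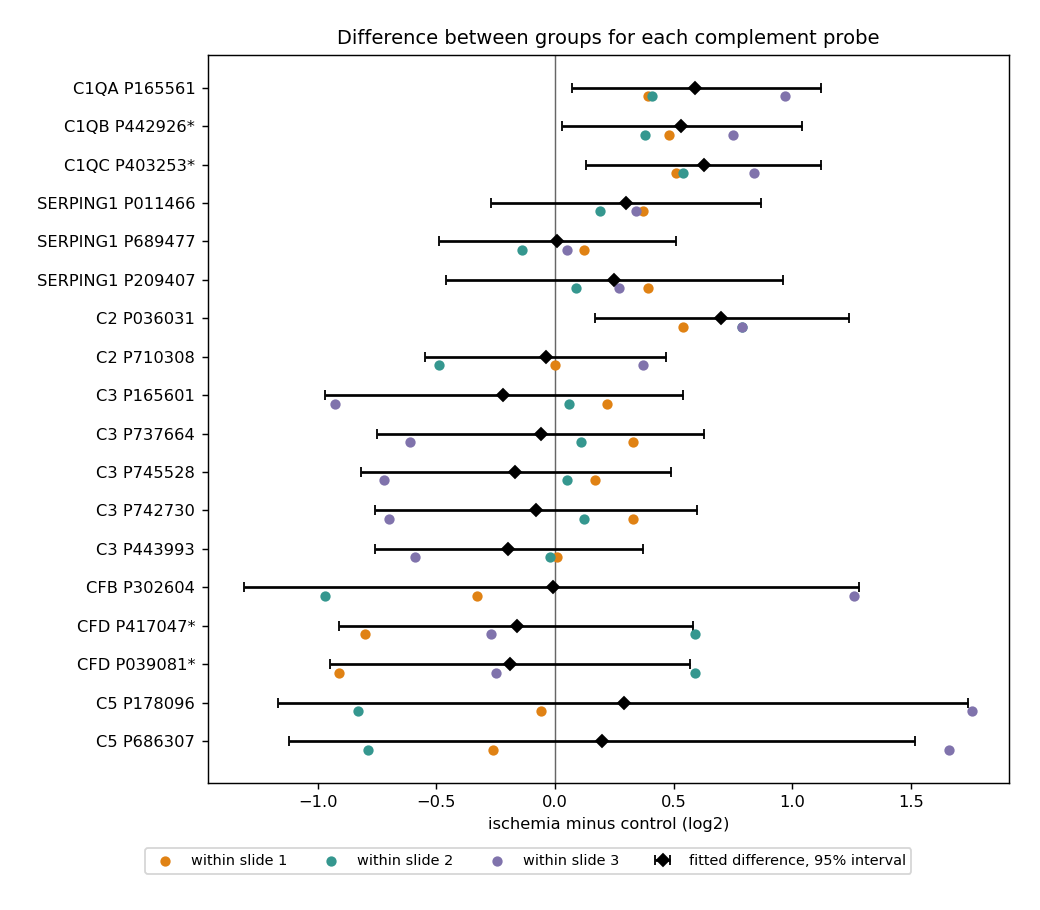
Ischemia minus control difference in log2 for each complement probe: black diamonds are the fitted differences with their 95% intervals, and coloured points are the difference between the 2 arrays of each slide. The intervals of C1QA, C1QB, C1QC and C2 P036031 lie above 0 and their within-slide points share that side, while slide 3, which carries ischemia 1, stands low for C3 and high for CFB and C5.

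CFB, the protease of the alternative pathway convertase, varied more between kidneys than between groups. It read 2.08, 1.13 and 0.54 in the controls and 1.80, 1.76 and 0.15 after ischemia. Control 1 was the highest array and ischemia 3 the lowest, and the groups overlapped fully. The difference was -0.01 ± 0.55, with a 95% interval from a ratio of 0.404 to 2.43 (limma adjusted p = 0.998), so changes of over 2-fold in either direction lie inside the interval. Only 6.11% of all tested probes had a larger spread within groups. CFB is the direct neighbour of C2 in the pig gene table, and the C2 probe that separated the groups did not share its order of kidneys.

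CFD, the protease that cuts factor B, is read by 2 probes that share 52 bases and so are nearly 1 measurement. The brighter, A_72_P417047, read 3.78, 3.57 and 3.59 in the controls and 3.32, 2.97 and 4.16 after ischemia. Ischemia 3 was above all controls and ischemia 1 and 2 were below all of them. The differences of the 2 probes were -0.16 ± 0.32 and -0.19 ± 0.32 (limma adjusted p = 0.960 and 0.954). Factor D is also known as adipsin, a fat cell product, and 4 of 6 adipocyte markers had a tested probe, with summed signals of 5.55 to 7.38 in the controls and 5.69 to 9.29 after ischemia. None of the 8 probes for ADIPOQ, the fat cell hormone adiponectin, passed the filter on dim probes. The sum was lowest among the ischemia kidneys in ischemia 3, where CFD was highest. Its largest term was FABP4, a fatty acid binding protein, with log2 values of 1.78 to 2.64. The part of fat cells in the CFD values was not tested. The profiles nearest to CFD were GZMB, the cytotoxic protease granzyme B, and CAT, the peroxide-clearing enzyme catalase, both at 0.10.

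C5, the source of the attractant C5a and of C5b, which starts the membrane attack complex, had the widest range. Its brighter probe, A_72_P178096, read 3.74, 2.78 and 2.61 in the controls and 4.37, 3.68 and 1.95 after ischemia. The dimmer, A_72_P686307, read 1.24, 0.39 and 0.11 against 1.77, 0.97 and -0.40. On both, ischemia 1 was the highest array and ischemia 3 the lowest, a range of 2.41 on the brighter probe, or 5.33-fold, among 3 kidneys given the same treatment. The differences were 0.29 ± 0.62 and 0.20 ± 0.56 (limma adjusted p = 0.963 and 0.968), and 3.44% of all tested probes spread more within groups than the brighter probe.

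Ischemia 3, the lowest kidney for C5 and CFB, was also the lowest for several other complement genes, while the highest kidney differed between genes. The profile nearest to CFB was that of GPR39, a zinc-sensing receptor, at 0.16, followed by complement C4, the partner of C2, at 0.21; the nearest to C5 were GPR39 at 0.30 and CFB at 0.31. C4 read 5.52, 4.94 and 4.08 in the controls and 5.24, 5.21 and 3.25 after ischemia. MASP2, a protease of the lectin pathway, read -1.04, -1.60 and -2.17 against -1.20, -0.89 and -3.40. C1R read 6.61, 6.28 and 5.99 against 6.77, 6.82 and 5.15. In all of them ischemia 3 was the lowest kidney and control 3 was the lowest control. Their group differences were -0.28 ± 0.60 for C4, -0.23 ± 0.66 for MASP2 and -0.05 ± 0.46 for C1R, far within their spread. Leaving out ischemia 3, the lowest kidney in each, had to raise these differences, so the rise is no separate result. They then lay at 0.32 to 0.38 for the 3 C4 probes, 0.27 to 0.55 for the 2 MASP2 probes and 0.50 for C1R. These 3 genes and C1S were set beside C5 and CFB after their values were seen.

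Ischemia 3 was the lowest of the 6 arrays for 4 of the 14 probes, ischemia 1 for 5 and control 3 for 4, so no single kidney was low throughout; over all tested probes ischemia 3 was lowest for 17.5%. Of the 22 other complement genes ischemia 3 was lowest for 8, beside 20.1% of genes with a symbol. It was the highest array for others of them, FCN2 and C8G included, so the list went both ways in this kidney. The red cell markers, of which 2 had a tested probe, had their lowest summed signal in ischemia 3. It was 2.53, against 7.35 and 36.6 in the other 2 ischemia kidneys and 3.07 to 11.7 in the controls. Of 12 plasma protein markers of the liver, 8 had a tested probe; 2 were higher and 6 lower after ischemia, with a median of -0.37. Their summed signal in ischemia 3, 109, was carried by TTR, the thyroid hormone carrier transthyretin, which read 6.27 there; without TTR it was 31.3, against 23.6 and 13.6 in ischemia 1 and 2 and 13.8 to 39.4 in the controls. ALB, serum albumin, passed the filter with 1 of its 20 probes. That probe was well above background on only 2 control arrays and 1 ischemia array, and it was lowest in ischemia 3, at -6.04. The part of blood or of RNA from other cells in the complement values was not tested.

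**Figure D3:**
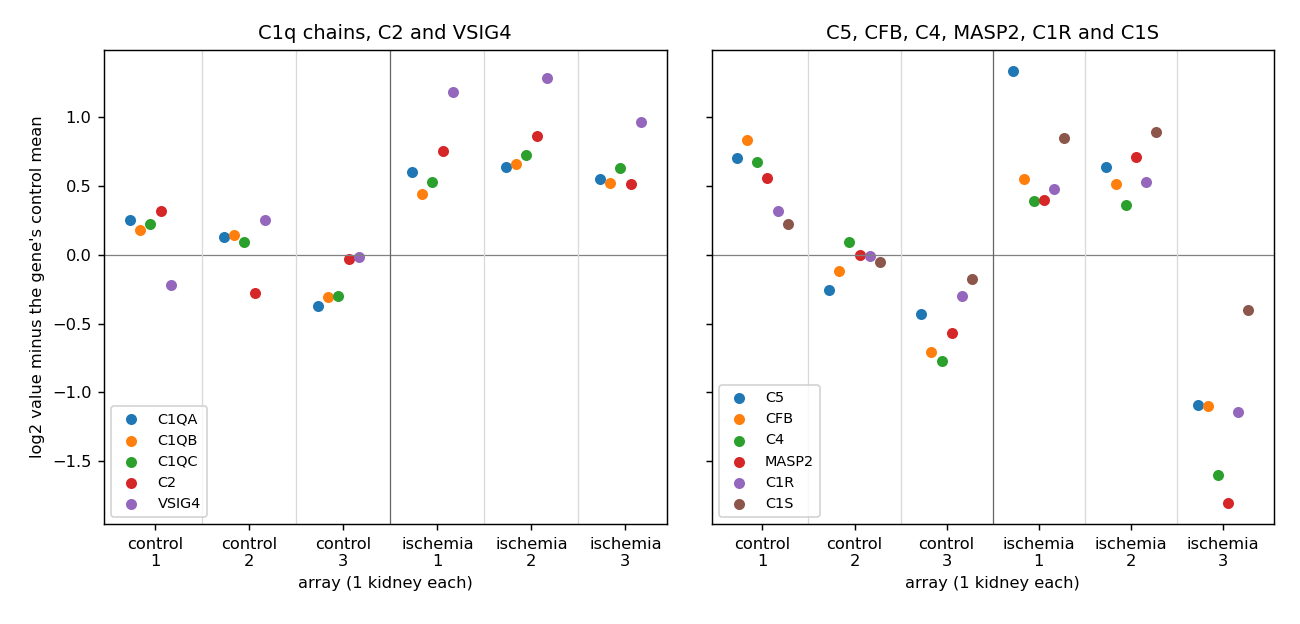
Log2 value on each array minus the gene's control mean, 1 point for each gene and kidney, by the brightest tested probe. In the left panel all ischemia points lie above the control points of the same gene. In the right panel ischemia 3 is the lowest array for each of the 6 genes. The genes of both panels were put together after their values were seen, so each pattern follows from the choice of genes.

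The rest of the pathway was read from a list of 45 further complement genes, of which 28 were matched to a probe and 22 had a tested one. By the brightest probe 11 were higher and 11 lower after ischemia, 0 passed limma's test, and the median log2 difference was -0.02. Of the 22, 1 higher and 1 lower gene had an unadjusted p under 0.05 by limma, where 2.98% and 3.32% of all probes did. The groups did not overlap for 3 genes: VSIG4 was higher, and C6 and MASP1 were lower. Of all probes, 5.88% had the ischemia values all above the controls and 5.03% all below.

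VSIG4, the complement receptor of tissue macrophages that binds C3b and iC3b, had the smallest unadjusted p of the list. It read -0.15, 0.32 and 0.05 in the controls and 1.25, 1.35 and 1.03 after ischemia. The groups were well apart, and the difference of 1.14 ± 0.21, a ratio of 2.20, still did not pass over all probes (limma adjusted p = 0.384). All 5 of its probes were higher, by 0.53 to 1.14, and 4 of them did not overlap. C5AR1, the receptor for C5a, differed by 0.42 ± 0.23 and ITGB2, the shared beta chain of complement receptors 3 and 4, by 0.12 ± 0.24 (limma adjusted p = 0.884 and 0.961). No probe was matched to C3AR1, the C3a receptor.

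C6, which joins C5b to build the membrane attack complex, had the most negative difference of the list. It read 0.35, 0.45 and -0.26 in the controls and -0.93, -0.81 and -2.44 after ischemia. All ischemia kidneys were below all controls, with ischemia 3 lowest. The difference was -1.57 ± 0.46 (limma adjusted p = 0.653), and its other tested probe gave -1.55 ± 0.51; left out 1 at a time, the arrays gave -1.86 to -1.05 for the first. Of the next members of the complex, C7 differed by -0.06 ± 0.25, C8G, the gamma chain of C8, by 0.44 ± 0.24, and C9, the pore former, by -0.66 ± 0.63, and none of them passed.

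Among the starting proteins, C1S, the protease C1r activates, lay higher on all 4 probes, by 0.02 to 0.58, with overlap on each. MASP1, a lectin pathway protease, differed by -0.48 ± 0.23 (limma adjusted p = 0.852). FCN2, a ficolin that recognises sugars, had a ratio of 2.15 (limma adjusted p = 0.878). FCN2 read 0.56, -1.27 and -1.27 in the controls and 0.09, -0.14 and 1.37 after ischemia, so control 1 lay among the ischemia kidneys; the log2 difference was 1.71 without control 1 and 0.64 without ischemia 3. Of the membrane regulators, CD59, which blocks the pore, differed by 0.02 ± 0.20, with a 95% interval from -0.45 to 0.49. CD55, which breaks up C3 convertases, had differences of 0.41 ± 0.36 and -0.12 on its 2 probes. CD46, a cofactor for cutting C3b, did not pass the filter on dim probes. CLU, the fluid-phase inhibitor clusterin, differed by -0.45 ± 0.31 (limma adjusted p = 0.907).

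**Figure D4:**
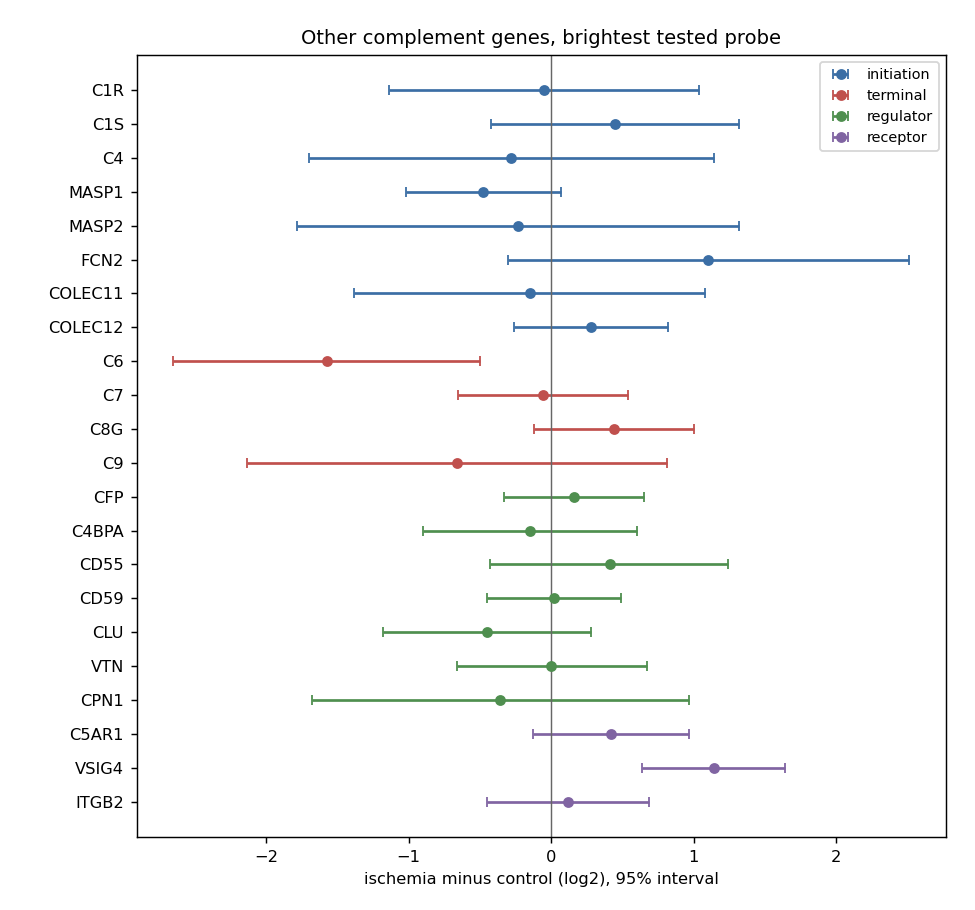
Ischemia minus control difference in log2 for the 22 further complement genes with a tested probe, with 95% intervals, coloured by role in the cascade. The interval of VSIG4 lies above 0 and that of C6 below 0; the other 20 include 0.

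Regulators that are known to control complement genes were read last. Of 30 interferon and acute phase regulators and targets 22 had a tested probe, 11 of them higher and 11 lower, with 0 passing limma's test, 3 higher and 0 lower at an unadjusted p under 0.05 (2.98% and 3.32% of all probes), and a median of -0.02. The ischemia kidneys lay all above the controls for 4 of the 22 and all below them for 3 (5.88% and 5.03% of all probes). CEBPD, a transcription factor of the acute phase response, differed by 0.96 ± 0.31, with all ischemia kidneys above all controls (limma adjusted p = 0.680). IL1B, the cytokine interleukin 1 beta, was well above background on the 3 ischemia arrays and on 0 of the control arrays. With the lowest well-measured signal of each control array taken where the probe itself was dimmer, its mean was 2.08-fold higher after ischemia. This ratio allows for the dim control signals only, not for the spread between kidneys. The 95% interval fitted to the measured values ran from a ratio of 1.65 to 7.77. The IL1B difference did not pass (limma adjusted p = 0.590). HP, the acute phase protein haptoglobin, differed by 0.52 ± 0.22 (limma adjusted p = 0.778).

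The remaining marker lists give the setting. Proximal tubule markers were lower in 11 of 12 genes (10 of 12 with median centring or quantile normalization), with a median of -0.68. Of these, 5 were at an unadjusted p under 0.05 and 0 passed limma's test. Over all tested probes 44.2% were higher, and 3.32% were lower at an unadjusted p under 0.05 by limma. Endothelial markers had a median of 0.09 over 7 genes, fibroblast markers -0.21 over 5, and T and B cell markers 0.06 over 6. In each list the groups did not overlap for 1 gene (5.88% of all probes lay all above and 5.03% all below). TEK, endothelial, was higher by 0.78 ± 0.29. COL1A2, of the fibroblast list, differed by -1.64 ± 0.30 and CD247, of the T and B cell list, by -1.33 ± 0.23. None of them passed (limma adjusted p = 0.748, 0.384 and 0.378). Neutrophil markers had 2 tested genes; ELANE differed by -0.06 ± 0.23, and S100A12 was well above background on 1 control and 2 ischemia arrays only.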

How the data were processed

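Total RNA from renal cortex was labelled with Cy3 and hybridised to 1 array per kidney, per the labels' protocols. The deposited scanner files hold spot intensity, background-subtracted and spatially detrended within each array by Agilent Feature Extraction 10.10.1.1, per the file headers, whereas limma, R 2.15.2 and Feature Extraction 11.5.1.1 appear in the submitters' processing notes. Values in the table the authors deposited are log2, with column medians of 5.91 to 5.99; their normalization between arrays is not stated in these sources. For gene names with over 2 probes its values lay closer to the median of those probes than to the probe that names the row (median absolute difference 0.0742 against 0.258), so its values are taken as gene values.

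Here log2 processed signal was scaled to each array's 75th percentile, outlier spots were left out, and spots of a probe averaged. Probes well above background on at least 3 arrays, with values on at least 5, were tested (25013). No spot was saturated, and 52.6% to 61.4% of spots per array were well above background; the number of arrays limits precision. limma 3.58.1 in R 4.3.3 (lmFit, eBayes, two-sided) compared the groups, as ischemia minus control, and the procedure was tested on simulated data. Symbols came from the files' gene names, accessions and descriptions and from a pig gene table; a gene outside the 14 probes is given by its brightest tested probe. The text names every member probe, of the other complement genes CD46, CD55, CD59, C3AR1, C5AR1 and the 6 of smallest p, up to 3 genes of each other list, and the 2 genes nearest in profile to each gene's brightest probe; C1R, C1S, C4, MASP2, C7, C9, ITGB2, TTR, ALB, ADIPOQ and CD14 were named beyond that or after their values were seen. A few items of the lists are not reported here. The members, the lists and the rules were chosen with earlier results of these data known.

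The main test did not pair kidneys by the labels' sample numbers. Deviations of same-numbered kidneys from their group means correlated at -0.35, -0.17 and -0.05. Such deviations sum to 0 within each group, and no same-numbered kidneys shared a slide. These values therefore cannot show whether the numbers pair the kidneys. Kidneys on the same slide correlated at 0.34, 0.10 and 0.33, and slide was used as a block in an alternative.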

Additional observations from a re-analysis of the deposited data

How the results depend on the processing

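The count of the 14 complement probes that passed was 0 under each alternative except array weights, where it was 1 (C2 A_72_P036031, adjusted p = 0.0338 by limma); the weights did not converge in limma's own estimate. With those weights 2 other complement genes passed instead of 0 (VSIG4 and C6), and 870 of all probes instead of 1. The count over all probes was 11 with median centring, 3 with normexp and quantile normalization, with the variance trend or with probes well above background on all 6 arrays, 4 in the deposited table, and 0 with quantile normalization, with no filter, and with slide as a block; with the replicate number as a block it was also 0, and that block changed no call of a complement gene. Leaving out 1 array gave 0 to 1. The median over the 6 complement genes was 0.12 to 0.57 with 1 array left out (0.57 without ischemia 3, 0.53 without control 1, 0.12 without control 3, 0.13 without ischemia 2), 0.44 with median centring and 0.22 with each gene's probes averaged. Median centring moved the median of all tested probes from -0.04 to 0.11 and the share of higher probes from 44.2% to 63.5%, so every difference gains 0.15 there. With it 14 of 22 other complement genes were higher instead of 11 and 16 of 22 interferon and acute phase genes instead of 11.

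Of 27 single probes, 13 kept their sign under every alternative run, among them C1QA (0.40 to 0.78), C1QB (0.38 to 0.78), C1QC (0.47 to 0.82), C2 A_72_P036031 (0.56 to 1.01), VSIG4 (0.91 to 1.29) and C6 (-1.86 to -1.05). For genes with several probes these ranges leave out the authors' deposited table, whose rows are gene values. That table gave 0.47 for C2, -0.62 for C6, and 0.59 and 1.29 for VSIG4. The other 14 changed sign under at least 1 alternative. Median centring gave 0.11 for C2 A_72_P710308, 0.09 and 0.07 for C3 A_72_P737664 and A_72_P742730, and 0.14 for CFB. Quantile normalization gave -0.03 for SERPING1 A_72_P689477, 0.14 for C2 A_72_P710308 and -0.02 for CD59; with normexp these were -0.04, 0.05 and -0.02, and C3 A_72_P443993 was 0.00. Array weights gave -0.07 for SERPING1 A_72_P689477, 0.01 for C3 A_72_P443993 and 0.26 for CFB. The authors' deposited table gave 0.23 for CFB and 0.12 and 0.04 for CFD A_72_P417047 and A_72_P039081. With 1 array left out, SERPING1 A_72_P689477 ran from -0.12 to 0.10 and A_72_P209407 from 0.00 to 0.43, C2 A_72_P710308 from -0.15 to 0.08, and CD59 from -0.06 to 0.13. C3 ran from -0.43 to 0.15, -0.28 to 0.25, -0.34 to 0.13 and -0.30 to 0.22 (A_72_P165601, A_72_P737664, A_72_P745528 and A_72_P742730), each turning above 0 without ischemia 1. CFB ran from -0.37 to 0.53, C5 from -0.23 to 0.98 and -0.29 to 0.79, and CFD from -0.50 to 0.10 and -0.53 to 0.08. Without losing their sign, CD55 ran from 0.17 (without control 2) to 0.80 (without control 3), CLU from -0.63 to -0.18 (without control 1) and SERPING1 A_72_P011466 from 0.14 (without ischemia 2) to 0.43. The cause of these changes was not tested.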
